A study of Mus musculus with 36 samples.

Results

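The cell cycle and DNA replication genes described here are 52 protein-coding genes, taken by symbol from the 55414 genes in each count file. They divide into 19 genes of S phase, when DNA is copied, and 33 genes of mitosis, when the copies are parted. The list was chosen by gene name and not by measured level, but with earlier results of these data known. RNA from mouse skin was sequenced in 36 libraries. Wounds labelled PD gave 5 libraries on day 2, 6 on day 4 and 6 on day 12 after injury, wounds labelled P gave 5, 5 and 6 on the same days, and unwounded skin gave 3 libraries labelled day 0. The labels do not spell out P or PD, and they give no strain, genotype, agent, dose, age or sex for any group. The series title concerns removal of senescent cells that express the cyclin-dependent kinase inhibitor p21, encoded by Cdkn1a, at a high level. Unwounded skin carries neither letter, so it served as the same control for both kinds of wound. The labels do not say which animal each library came from, so the p-values measure the spread between these libraries, which may be partly technical.

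A dividing cell first loads the Mcm helicase onto replication origins, then fires those origins as cyclin E and E2F factors become active, and later enters mitosis under Cdk1 with its A and B cyclins. Transcription runs in matching waves: E2F factors drive many replication genes at the G1/S transition, while the DREAM and MuvB complexes, B-Myb and FoxM1 act on mitotic genes through CHR and CCAAT elements. In resting adult skin most cells are not cycling, and wounding brings keratinocytes, fibroblasts, endothelial cells and leukocytes into division.

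Library totals lay between 11.8 M and 58.4 M counts, with a median of 30.4 M. The lowest count of any of the 52 genes in any library was 25, so none of them was limited by missing counts. Summed CPM (counts scaled to a common library size of 1 M) of 7 basal keratinocyte markers, which define the epidermal cells of the labelled tissue, were 3100 to 14700 in PD wounds and 5925 to 12030 in P wounds on day 12, against 12200 to 20460 in unwounded skin. Skeletal muscle RNA was also present: the 6 adult muscle markers summed to 49190 to 80090 CPM in unwounded skin. In PD wounds they summed to 11870 to 38430 CPM on day 2, 10340 to 57100 on day 4 and 4083 to 59330 on day 12. In P wounds they summed to 11490 to 32430, 3952 to 37980 and 2070 to 27710 CPM on the same days. Neutrophil markers summed to at least 2231 CPM in every wound of day 2 and day 4 and to no more than 2.43 CPM in unwounded skin, where Retnlg and Ly6g were at 0 in at least 1 library. Hair matrix and inner root sheath markers summed to 838 to 12910 CPM in PD wounds and 697 to 13040 CPM in P wounds of day 12, against 38.0 to 61.4 CPM in unwounded skin. P day 4 replicate 3 stood apart in its group with 9406 CPM of those hair markers. Monocyte and macrophage markers summed to 1424 to 2938 CPM in PD and 2095 to 4462 CPM in P wounds of day 2, against 128.6 to 340.4 CPM in unwounded skin, and 7 of 7 were called higher on days 2 and 4. Wound keratinocyte markers summed to 1863 to 26610 CPM in PD and 8096 to 21380 CPM in P wounds of day 4, against no more than 876 CPM in unwounded skin. Fibroblast markers summed to 12010 to 46390 CPM in PD and 10700 to 86040 CPM in P wounds of day 12, against 942 to 2059 CPM in unwounded skin. The part of these cell types in the results was not tested. In whole tissue, a change in the number of cycling cells and a change in RNA per cell cannot be told apart.

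Nearly all of the cell cycle genes were higher in wounds than in unwounded skin, on every day and in both kinds of wound. In PD wounds 49 of the 52 genes were called higher on day 2, against 21% of all 20657 genes tested, 48 on day 4 (25.4% of all genes) and 48 on day 12 (24.2%). The count in P wounds was 50 on day 2 (22.3% of all genes), 49 on day 4 (23.6%) and 48 on day 12 (23.7%). None of the 52 was called lower, against 18.4%, 21.8% and 20.7% of all genes in PD wounds and 19%, 19.7% and 20% in P wounds on the same days. A gene is called where the edgeR quasi-likelihood test gives an adjusted p under 0.05. The same 48 genes were called in all 6 comparisons, Ect2 and Anln were called in some, and Ccne2 and Ttk in none. These 6 comparisons use the same 3 unwounded libraries, so they are not independent of each other.

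The separation was also visible library by library. All PD libraries stood above all unwounded ones for 50 of the 52 genes on day 2 (22.5% of all genes), 47 on day 4 (21.4%) and 45 on day 12 (19.1%). For P libraries the count was 48 on day 2 (23.6%), 47 on day 4 (22.8%) and 48 on day 12 (19.9%). Among the called genes, the fold over unwounded skin ran from 1.39 for Mcm6 to 9.13 for Birc5, both in PD wounds of day 4. The median log2 change of the S-phase genes was 1.53, 1.68 and 1.65 on days 2, 4 and 12 in PD wounds and 1.62, 1.59 and 1.67 in P wounds. For the mitotic genes it was 1.72, 1.93 and 2.18 in PD wounds and 1.86, 1.89 and 2.19 in P wounds, while the median over all genes tested stayed between 0.02 and 0.10. Without a composition factor the median of all genes on day 12 was 0.33 in PD and 0.37 in P wounds, and the calls over all genes split into 6734 higher and 2657 lower in PD and 7064 and 2617 in P wounds. With the TMM factor the split was 5006 higher and 4276 lower in PD and 4890 and 4138 in P wounds. On day 2 of PD wounds it was 5125 higher and 2674 lower without the factor and 4335 and 3798 with it. The medians of the S-phase and mitotic genes on day 12 without the factor, 1.88 and 2.41 in PD and 1.94 and 2.45 in P wounds, remained above that shift.

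**Figure D1:**
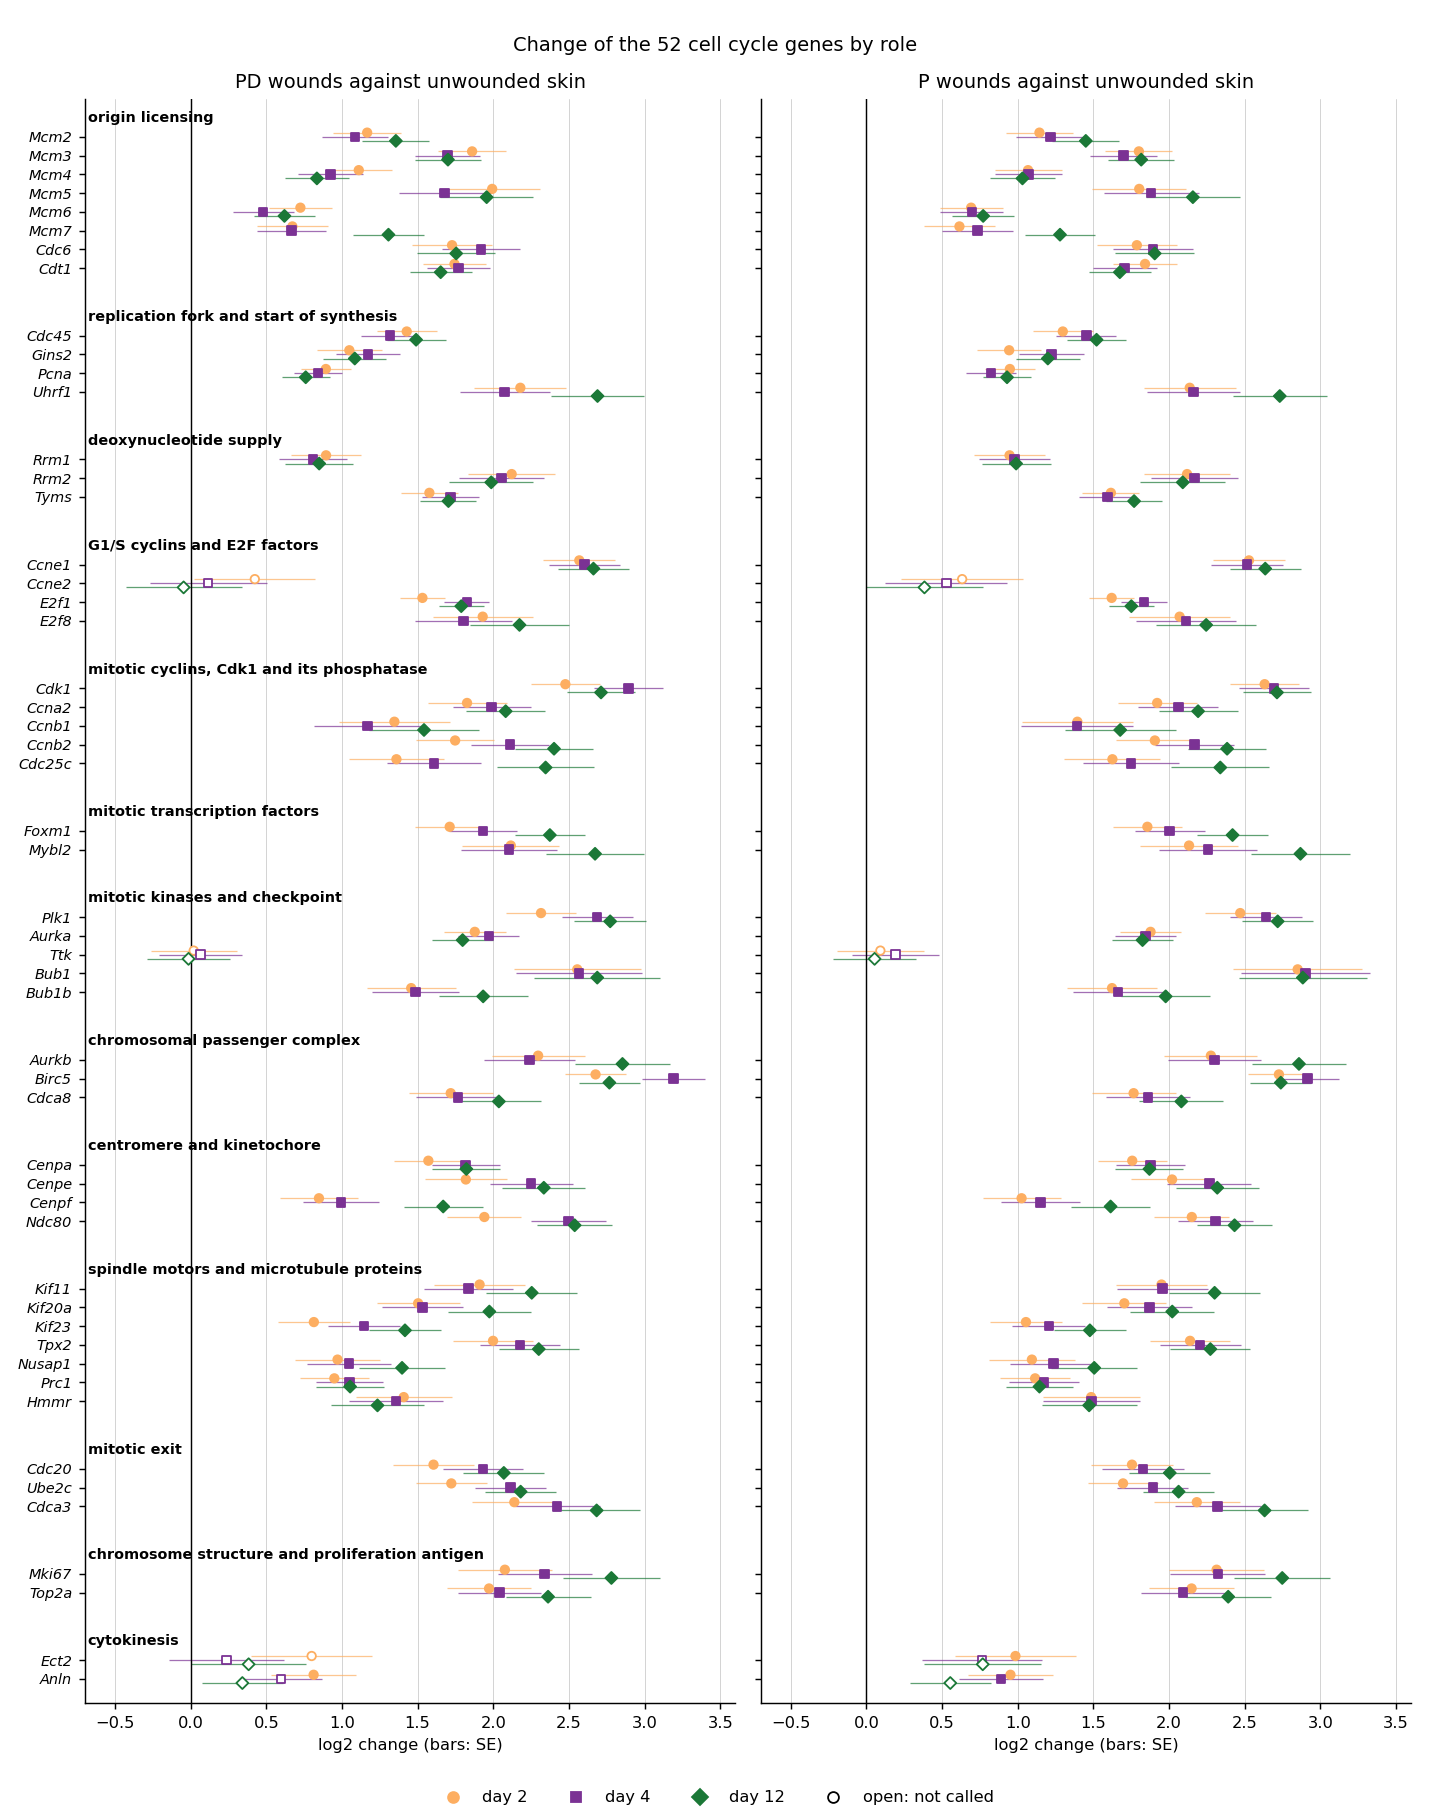
Log2 change (horizontal axis, with SE) of each of the 52 genes, grouped by role, in PD wounds (left) and P wounds (right) against unwounded skin, with a separate colour for days 2, 4 and 12. Filled symbols mark called genes; the open symbols belong to Ccne2, Ttk, Ect2 and Anln, and Birc5 of PD day 4 lies farthest right at 3.19.

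All 8 genes of origin licensing, which load the replicative helicase on DNA before S phase, were called higher in each of the 6 comparisons. Their median log2 change was 1.45, 1.38 and 1.5 in PD wounds and 1.47, 1.46 and 1.56 in P wounds on days 2, 4 and 12. Mcm5, a subunit of the helicase ring, stood at 58.4, 84.9, 65.7, 61.8 and 72.4 CPM in PD wounds of day 2 and at 83.5, 66.0, 55.4, 50.6 and 45.4 CPM in P wounds of day 2, against 15.7, 15.9 and 20.2 CPM in unwounded skin. On day 4 it lay between 36.2 and 86.4 CPM in PD wounds, with a median of 48.2, and at 67.6, 81.9, 73.8, 41.0 and 53.6 CPM in P wounds. On day 12 it ranged from 30.96 to 94.7 CPM around a median of 67.4 in PD wounds and from 51.9 to 97.9 CPM around a median of 80.5 in P wounds. Every wound library was above every unwounded library, while PD and P libraries overlapped on each day. The log2 change of Mcm5 was 1.99 ± 0.31 (SE; adjusted p = 9.0e-06) in PD and 1.80 ± 0.31 (adjusted p = 2.5e-05) in P wounds of day 2, and 1.96 and 2.16 on day 12.

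Mcm6 and Mcm7, other subunits of the same ring, moved less than Mcm5. Mcm3, also a subunit, averaged 65.6, 58.5 and 58.7 CPM in PD wounds of days 2, 4 and 12. In P wounds Mcm3 averaged 62.9, 58.6 and 63.6 CPM, against 18.1 CPM in unwounded skin. Mcm6 averaged 68.0 ± 7.9 CPM in PD wounds of day 2 (SD, n = 5), 57.4 ± 17.6 on day 4 (n = 6) and 63.2 ± 13.2 on day 12 (n = 6), against 41.2 ± 7.9 CPM in unwounded skin (n = 3). In P wounds it averaged 66.5 ± 4.9, 66.7 ± 13.9 and 70.2 ± 10.1 CPM on the same days. By edgeR it was called in all 6 comparisons with folds between 1.39 and 1.71, but wound and unwounded libraries overlapped on day 4 of both kinds and on day 12 of PD wounds. Mcm7, another ring subunit, showed a fold of 1.59 in PD and 1.53 in P wounds of day 2, 1.59 and 1.66 on day 4, and 2.47 and 2.43 on day 12. The small changes rested partly on 1 control: without unwounded replicate 2, Mcm6 missed the threshold in PD wounds of day 4 (log2 change 0.39, adjusted p = 0.1998) and day 12 (0.54, 0.0768) and in P wounds of day 2 (0.59, 0.0606) and day 4 (0.61, 0.0511). Mcm7 did so in PD wounds of day 2 (0.59, 0.0824) and day 4 (0.56, 0.083) and in P wounds of day 2 (0.50, 0.138) and day 4 (0.64, 0.0589). Mcm6 in PD wounds of day 4 was also lost without PD day 4 replicate 1 (0.33, 0.145), PD day 4 replicate 2 (0.39, 0.108) or unwounded replicate 1 (0.53, 0.083), and with the replicate block (0.50, 0.0584), no composition factor (0.53, 0.0737), no filter (0.47, 0.0905) or only the libraries compared (0.54, 0.0989). Mcm7 in P wounds of day 2 was also lost without P day 2 replicate 1 (0.56, 0.0653), replicate 2 (0.60, 0.0517) or replicate 3 (0.60, 0.0517), and with no filter (0.60, 0.0508). Exons of Mcm7 share 15.4% of their bases with other genes, mostly on the opposite strand, so its level is less certain than that of Mcm5 or Mcm6, which share none.

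At the replication fork, all 4 genes were called in every comparison. Pcna, the sliding clamp that holds DNA polymerase on its template, stood at 93.2, 114.9, 99.5, 99.6 and 102.9 CPM in PD wounds of day 2 and at 127.3, 108.5, 99.3, 99.0 and 95.6 CPM in P wounds, against 55.7, 52.6 and 56.5 CPM in unwounded skin. On day 4 it ranged from 73.9 to 119.7 CPM in PD wounds, with a median of 102.6, and stood at 106.4, 106.6, 102.2, 83.7 and 86.7 CPM in P wounds. On day 12 it ranged from 69.3 to 113.8 CPM in PD wounds and from 81.6 to 125.8 CPM in P wounds, with medians of 92.4 and 106.4. No wound library fell to the unwounded range, although the gain was small, with folds of 1.86, 1.79 and 1.69 in PD wounds and 1.93, 1.77 and 1.9 in P wounds (highest adjusted p = 0.0003). Uhrf1, which reads newly copied, hemimethylated DNA and recruits the maintenance methyltransferase, showed larger folds, 4.53, 4.21 and 6.45 in PD wounds and 4.4, 4.47 and 6.64 in P wounds. Cdc45 and Gins2, which join the Mcm ring to form the active helicase, were called in all 6 comparisons too. Gins2 shares 67.3% of its exon bases with Gse1 on the opposite strand, so its counts cannot be fully assigned. Pcna shares 20.8% and Cdc45 16.1% with genes on the opposite strand, so their levels are also less certain.

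The 3 genes of deoxynucleotide supply rose in all 6 comparisons. Rrm2, the regulatory subunit of ribonucleotide reductase, averaged 60.3 ± 7.0 CPM in PD wounds of day 2 (SD, n = 5), 57.5 ± 17.3 on day 4 (n = 6) and 54.9 ± 18.4 on day 12 (n = 6). In P wounds it averaged 60.2 ± 15.3 CPM (n = 5), 62.2 ± 12.8 (n = 5) and 59.0 ± 13 (n = 6), against 13.9 ± 1.7 CPM in unwounded skin (n = 3). Tyms, which makes thymidylate, averaged 29.2, 32.2 and 31.9 CPM in PD wounds and 29.99, 29.5 and 33.4 CPM in P wounds, against 9.80 CPM in unwounded skin. For both genes the wound levels stood far above the unwounded spread and differed little between days. Rrm2 shares 43.3% of its exon bases with Gm59512 on the opposite strand, so its level is less certain than that of Tyms, which shares none.

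Among the cyclins E and E2F factors, Ccne1, E2f1 and E2f8 rose and Ccne2 was not called. Ccne1 and Ccne2 encode the cyclins E, which activate Cdk2 for S-phase entry. Ccne1 stood at 12.9, 14, 10.2, 12.3 and 13.3 CPM in PD wounds of day 2 and at 14, 12.4, 13.8, 9.64 and 11.2 CPM in P wounds, against 2.09, 1.34 and 2.99 CPM in unwounded skin. On day 4 it ranged from 8.99 to 14.7 CPM in PD wounds, with a median of 14.2, and stood at 11.4, 13.2, 13.7, 10.7 and 11.4 CPM in P wounds. Its day 12 level ranged from 7.51 to 17.1 CPM in PD wounds and from 10.7 to 15.2 CPM in P wounds, with medians of 14 and 13.4. The lowest wound library was above the highest unwounded one, and the log2 change ranged from 2.51 in P wounds of day 4 to 2.66 ± 0.24 in PD wounds of day 12 (SE; adjusted p = 6.5e-10). Ccne2 stood at 7.94, 7.20, 6.97, 4.4 and 3.6 CPM in PD wounds of day 2 and at 10.3, 9.60, 4.71, 4.25 and 5.89 CPM in P wounds, against 3.33, 5.76 and 4.35 CPM in unwounded skin. Later it ranged from 2.29 to 8.33 CPM in PD wounds of day 4 and from 2.22 to 5.40 CPM in PD wounds of day 12. In P wounds it ranged from 3.34 to 9.16 CPM on day 4 and from 4.21 to 8.53 CPM on day 12. Wound and unwounded libraries overlapped on every day, and the log2 change lay between -0.05 and 0.63, with 95% intervals inside -0.83 to 1.45. limma-voom with sample weights did call Ccne2 in PD wounds of day 2 (0.87, adjusted p = 0.0021) and in P wounds of day 2 (0.67, 0.0181), day 4 (0.87, 0.0014) and day 12 (0.59, 0.0243). E2f1, the activator of the G1/S wave, averaged 23.8, 29.2 and 28.4 CPM in PD wounds and 25.3, 29.4 and 27.7 CPM in P wounds on the 3 days, against 8.24 CPM in unwounded skin. E2f8, a repressor that closes the wave, averaged 22.4, 20.5 and 26.5 CPM in PD wounds and 24.6, 25.4 and 27.8 CPM in P wounds, against 5.88 CPM in unwounded skin. Ccne2 shares 15.2% of its exon bases with Ints8 and E2f8 20.25% with Gm2788, both on the opposite strand, so their levels are less certain.

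**Figure D2:**
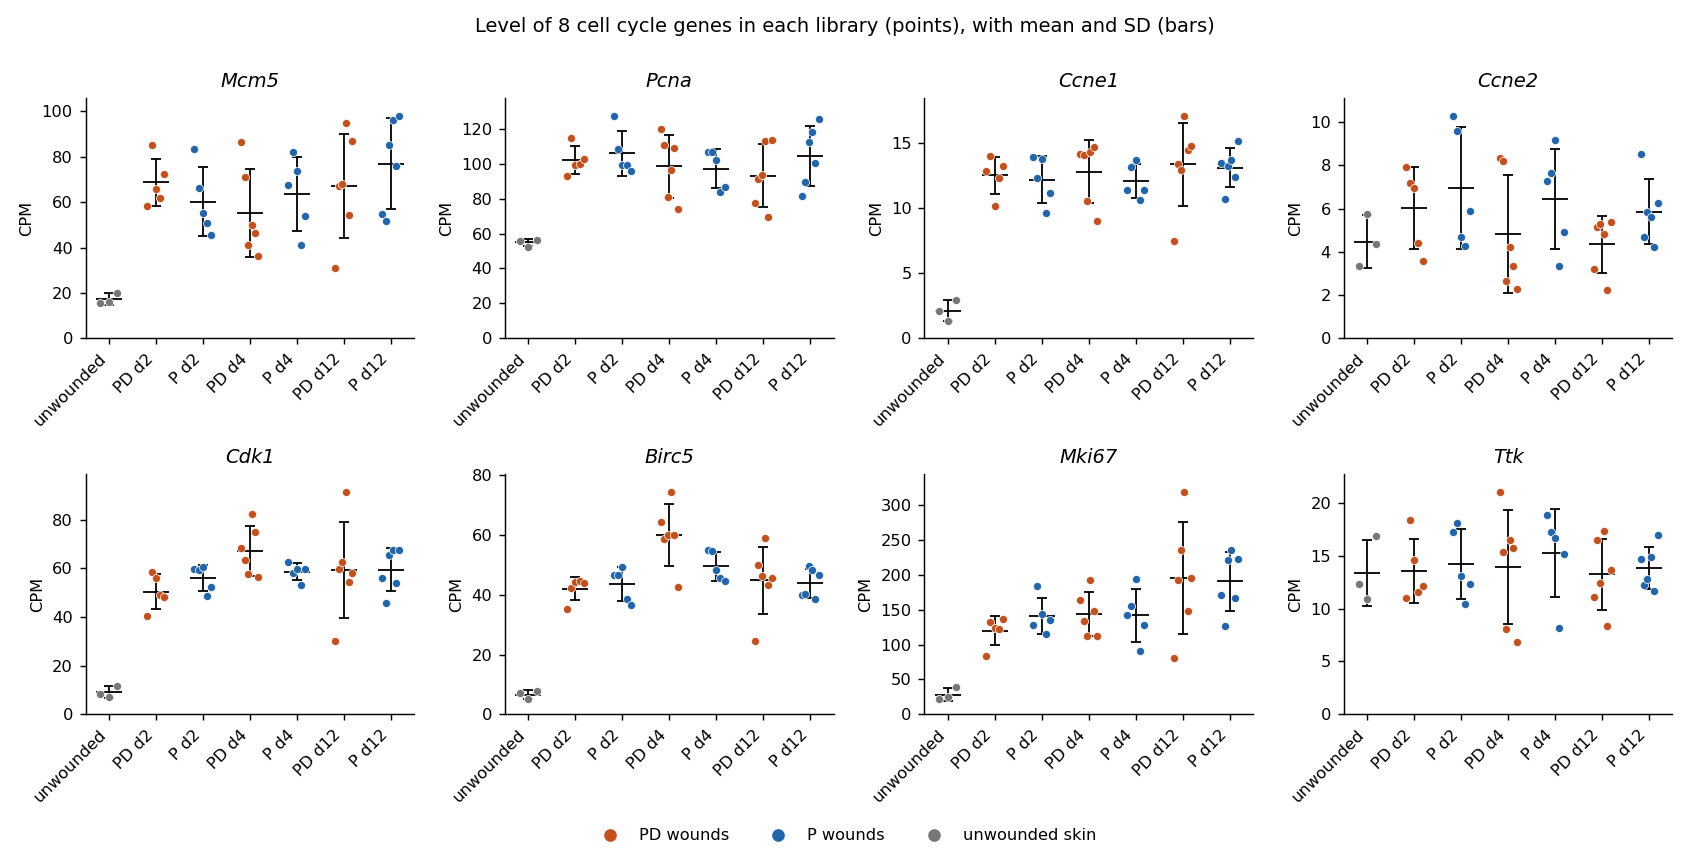
Level in CPM (vertical axis) of 8 of the genes in each library (points), with mean and SD (bars), in unwounded skin and in PD and P wounds of days 2, 4 and 12. Mcm5, Pcna, Ccne1, Cdk1, Birc5 and Mki67 lie above the unwounded libraries in all 33 wounds, while Ccne2 and Ttk overlap them on each day.

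The mitotic engine rose further. All 5 genes for Cdk1, its cyclins and its phosphatase were called in every comparison, with medians of 1.75, 1.99 and 2.35 in PD wounds and 1.91, 2.06 and 2.34 in P wounds on the log2 scale. Cdk1, the kinase that starts mitosis, stood at 40.4, 58.4, 56.0, 49.2 and 48.2 CPM in PD wounds of day 2 and at 59.7, 59.3, 60.8, 48.8 and 52.2 CPM in P wounds, against 8.45, 6.98 and 11.8 CPM in unwounded skin. At day 4 the level ranged from 56.4 to 82.5 CPM in PD wounds, with a median of 66.0, and stood at 62.5, 58.1, 59.6, 53.1 and 59.6 CPM in P wounds. On day 12 it ranged from 30.02 to 91.4 CPM in PD wounds and from 46.0 to 67.6 CPM in P wounds, with medians of 59.0 and 60.8. All 33 wounds exceeded all 3 unwounded libraries, and PD and P wounds overlapped. The fold was 5.56, 7.42 and 6.55 in PD wounds and 6.20, 6.46 and 6.56 in P wounds (highest adjusted p = 1.5e-09). Ccnb1, the B cyclin that partners Cdk1, had the smallest change of this group in PD wounds of day 4, with a log2 change of 1.17, and lost its call there without unwounded replicate 2 (1.0, adjusted p = 0.0563). Foxm1 and Mybl2, transcription factors of the mitotic wave, were called in all 6 comparisons, with log2 changes of at least 1.71.

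Genes that build the spindle checkpoint and the passenger complex on chromosomes included the largest changes and also the flattest gene. Birc5 encodes survivin, a subunit of the chromosomal passenger complex. It stood at 35.3, 42.3, 44.2, 44.5 and 43.9 CPM in PD wounds of day 2 and at 46.7, 46.8, 49.2, 38.5 and 36.5 CPM in P wounds, against 7.14, 5.01 and 7.65 CPM in unwounded skin. On day 4 it ranged from 42.8 to 74.4 CPM in PD wounds, with a median of 60.0, and stood at 54.9, 54.5, 48.2, 45.6 and 44.6 CPM in P wounds. On day 12 it ranged from 24.6 to 59.0 CPM in PD wounds and from 38.6 to 49.7 CPM in P wounds, with medians of 46.0 and 43.4. All 33 wounds stood above unwounded skin, and the fold was 6.39, 9.13 and 6.81 in PD wounds and 6.62, 7.54 and 6.67 in P wounds. Aurkb, the kinase of the same complex, reached a fold of 7.23 in PD wounds and 7.25 in P wounds on day 12. Bub1, a checkpoint kinase at the kinetochore, stood at 9.14, 13.5, 12.1, 8.58 and 7.78 CPM in PD wounds of day 2 and at 16.04, 17.3, 11.1, 7.52 and 10.7 CPM in P wounds, against 2.32, 0.778 and 2.20 CPM in unwounded skin. The groups did not overlap, and its fold was 5.88, 5.93 and 6.44 in PD wounds and 7.21, 7.47 and 7.38 in P wounds. Plk1, a kinase that matures centrosomes and promotes mitotic entry, averaged 31.7, 41.0 and 43.6 CPM in PD wounds and 35.3, 39.7 and 41.9 CPM in P wounds, against 6.40 CPM in unwounded skin.

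Ttk, the Mps1 checkpoint kinase, behaved unlike its group. It stood at 11.03, 18.3, 14.6, 11.6 and 12.1 CPM in PD wounds of day 2 and at 17.2, 18.1, 13.1, 10.4 and 12.3 CPM in P wounds, against 12.4, 10.9 and 16.8 CPM in unwounded skin. On day 4 it ranged from 6.88 to 21.03 CPM in PD wounds, with a median of 15.5, and stood at 18.9, 17.3, 16.7, 8.19 and 15.2 CPM in P wounds. By day 12 the level ranged from 8.36 to 17.3 CPM in PD wounds and from 11.7 to 16.9 CPM in P wounds. Wound and unwounded libraries overlapped on every day. Its log2 change lay between -0.01 and 0.19, and the 95% intervals of all 6 comparisons lay inside -0.58 to 0.78. limma-voom with sample weights called Ttk in P wounds of day 4 (0.41, adjusted p = 0.0297), and its direction turned under at least 1 other setting in each of the 6 comparisons. Only 4.32% of its exon bases are shared with another gene.

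Kinetochore, spindle and mitotic exit genes rose without exception in the 6 comparisons. The 4 centromere and kinetochore genes had a median log2 change of 1.69, 2.03 and 2.08 in PD wounds and 1.89, 2.07 and 2.09 in P wounds. Within them, Cenpf, a large protein of the outer kinetochore, gave the smallest changes, at 0.85, 0.99 and 1.67 in PD wounds and 1.03, 1.15 and 1.61 in P wounds. The 7 spindle motors and microtubule proteins, such as the motor Kif11 and the bundling protein Prc1, had medians of 1.41, 1.36 and 1.42 in PD wounds and 1.49, 1.49 and 1.51 in P wounds. Of the 3 mitotic exit genes, Ube2c, the ubiquitin-conjugating enzyme of the anaphase-promoting complex, averaged 50.2, 65.9 and 69.0 CPM in PD wounds and 49.3, 56.5 and 63.6 CPM in P wounds, against 15.2 CPM in unwounded skin. Ube2c shares 19% of its exon bases with the muscle gene Tnnc2 on the opposite strand, so its level is less certain. Cdc20, which activates the same complex, averaged 46.4, 58.1 and 64.0 CPM in PD wounds and 51.4, 54.0 and 61.2 CPM in P wounds, against 15.3 CPM in unwounded skin.

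Mki67, the Ki-67 antigen of cycling cells, stood at 84.4, 132.6, 123.3, 122.3 and 137.1 CPM in PD wounds of day 2 and at 127.9, 184.2, 144.5, 115.2 and 135.4 CPM in P wounds, against 22.1, 24.8 and 38.6 CPM in unwounded skin. Its day 4 level ranged from 111.8 to 192.9 CPM in PD wounds, with a median of 141.0, and stood at 143.0, 155.3, 193.7, 90.5 and 128.5 CPM in P wounds. The day 12 level ranged from 81.3 to 319.3 CPM in PD wounds and from 127.0 to 236.4 CPM in P wounds, with medians of 194.1 and 196.4. Every wound exceeded every unwounded library, and the widest spread was that of PD wounds on day 12. The log2 change was 2.08, 2.34 and 2.78 in PD wounds and 2.31, 2.32 and 2.75 in P wounds, with SEs between 0.31 and 0.32. Top2a, which untangles chromosomes, was called in all 6 comparisons with log2 changes between 1.97 and 2.39.

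Both cytokinesis genes moved little. Ect2, which activates RhoA at the cleavage furrow, stood at 10.8, 15.8, 9.92, 10.04 and 8.50 CPM in PD wounds of day 2 and at 18.3, 18.9, 7.62, 8.12 and 9.52 CPM in P wounds, against 7.78, 4.53 and 6.71 CPM in unwounded skin. P day 2 replicates 1 and 2 were high and the other 3 lay just above or within the unwounded range. By edgeR, Ect2 was called in P wounds of day 2 alone, at 0.98 ± 0.40 on the log2 scale (SE; adjusted p = 0.0482), and not without P day 2 replicate 1 (0.81, 0.1201), P day 2 replicate 2 (0.79, 0.126), unwounded replicate 1 (1.2, 0.0570), unwounded replicate 2 (0.82, 0.188) or unwounded replicate 3 (1.07, 0.089), nor by limma-voom (0.50, 0.0653) or with no filter (0.97, 0.0797). Other settings called Ect2 elsewhere. PD wounds of day 2 were called by limma-voom (0.61, 0.0232), the replicate block (0.95, 0.0394), 2 surrogate variables (0.81, 0.0164) and the fit of only the libraries compared (0.88, 0.0215). P wounds of day 4 were called by limma-voom (0.54, 0.0355) and the replicate block (0.96, 0.0363), and P wounds of day 12 by the replicate block (0.95, 0.0358) and with no composition factor (1.02, 0.0457). Anln, the actin-binding scaffold of the contractile ring, stood at 32.5, 42.1, 33.8, 27.7 and 28.6 CPM in PD wounds of day 2 and at 44.7, 51.8, 27.6, 28.4 and 28.8 CPM in P wounds, against 19.3, 14.3 and 22.7 CPM in unwounded skin. By day 12 Anln ranged from 18.7 to 29.8 CPM in PD wounds and from 18.4 to 42.7 CPM in P wounds, overlapping unwounded skin. Anln was called in PD wounds of day 2 (log2 change 0.81) and P wounds of day 2 (0.95) and day 4 (0.89). All 3 calls were lost without unwounded replicate 2 (0.71, adjusted p = 0.101; 0.82, 0.0567; and 0.77, 0.0718), and that of PD wounds also without PD day 2 replicate 2 (0.71, 0.0519). In wounds of day 12 edgeR did not call Anln, at 0.34 ± 0.27 in PD and 0.55 ± 0.27 in P wounds (SE; adjusted p = 0.302 and 0.0935). Anln was called there in PD wounds with 2 surrogate variables (0.46, 0.032) and in P wounds with no composition factor (0.80, 0.0291), by limma-voom (0.35, 0.041) and with the replicate block (0.69, 0.0284). In PD wounds of day 4, where edgeR gave 0.60 (adjusted p = 0.0685), it was called by the DESeq2 Wald test (0.63, 0.0409), limma-voom (0.52, 0.013), the replicate block (0.71, 0.0214) and 2 surrogate variables (0.78, 0.000482), and without PD day 4 replicate 3 (0.74, 0.0315) or 6 (0.76, 0.022).

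Summed over each list, S-phase genes reached 753, 975, 814, 827 and 887 CPM in PD wounds of day 2 and 1033, 902, 817, 739 and 730 CPM in P wounds, against 347, 319 and 387 CPM in unwounded skin. Mitotic genes reached 890, 1267, 1175, 1084 and 1175 CPM in PD wounds of day 2 and 1313, 1477, 1240, 1022 and 1087 CPM in P wounds, against 339, 283 and 439 CPM in unwounded skin. On day 12 the mitotic sum ranged from 727 to 2185 CPM in PD wounds and from 1102 to 1768 CPM in P wounds, with medians of 1567 and 1536. The mitotic sum divided by the S-phase sum was 1.18 to 1.44 in PD wounds and 1.27 to 1.64 in P wounds on day 2, against 0.886 to 1.14 in unwounded skin. On day 4 it was 1.36 to 1.99 in PD and 1.43 to 1.63 in P wounds, and on day 12 it was 1.3 to 1.83 in PD and 1.40 to 1.83 in P wounds. All 33 wounds had a higher ratio than the 3 unwounded libraries, so in these sums the mitotic genes gained more than the S-phase genes; no test was run on a sum over the genes.

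**Figure D3:**
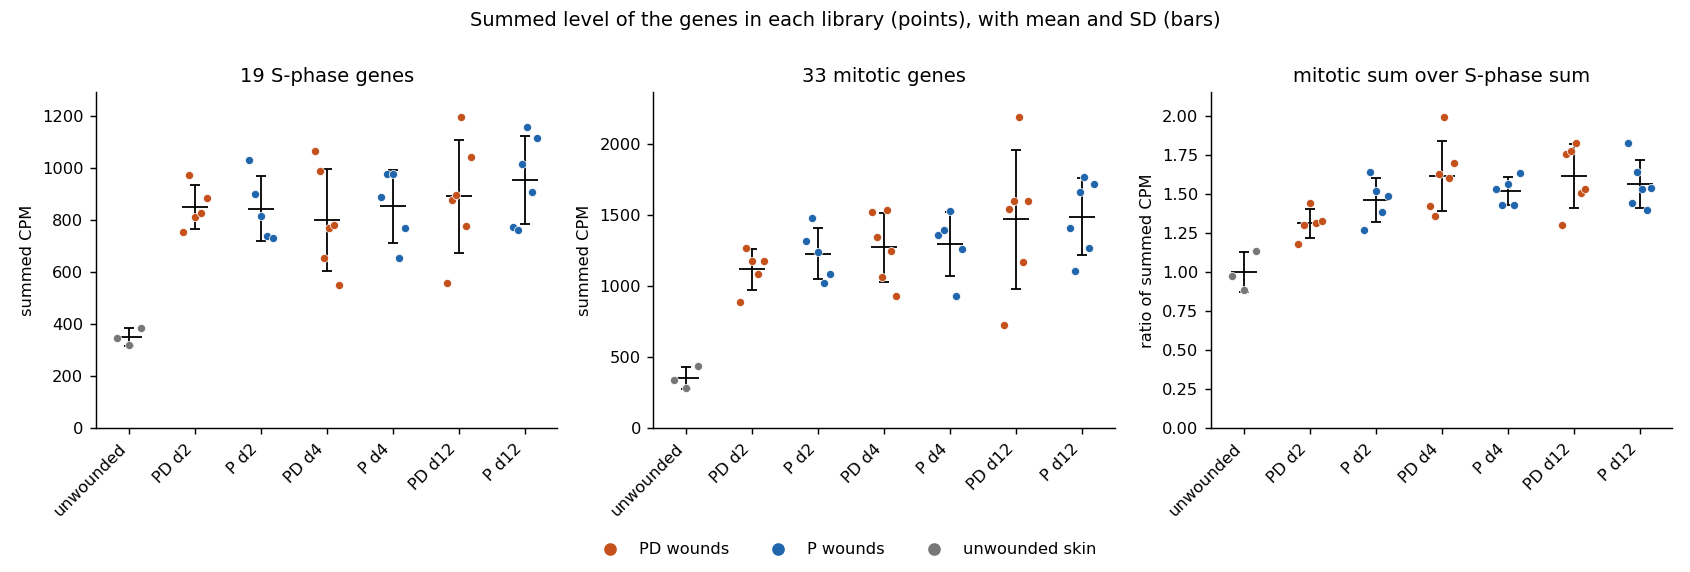
Summed CPM of the 19 S-phase genes (left) and the 33 mitotic genes (middle) and the ratio of the sums (right) in each library (points), with mean and SD (bars). The unwounded libraries are the lowest in all 3 panels, and PD and P wounds overlap on each day.

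Within a group the genes were high or low together in a few libraries. PD day 2 replicate 1 was the lowest of its group for 41 of the 52 genes, PD day 4 replicate 6 for 40 and PD day 12 replicate 1 for 43. PD day 12 replicate 4 was the highest of its group for 44. Among P wounds, P day 4 replicate 4 was the lowest for 44 genes and P day 4 replicate 3, the library with high hair markers, the highest for 32. In unwounded skin, replicate 3 was the highest for 43 genes and replicate 2 the lowest for 39. The low libraries of day 4 also carried much muscle RNA, with adult muscle markers at 45710 CPM in PD day 4 replicate 6, against a group median of 18810, and at 37980 CPM in P day 4 replicate 4, against a median of 10760. PD day 4 replicate 3 carried more still, at 57100 CPM. Its 52 genes summed to 1716 CPM, the next lowest of its group after 1482 CPM in replicate 6. In P day 4 replicate 3, often the highest, the muscle markers were at 3952 CPM. In unwounded skin they were at 80090 CPM in replicate 2 and 49190 CPM in replicate 3. In PD day 12 replicate 1 the same markers were at 23500 CPM, near the group median of 20610. PD day 12 replicate 4, the highest for most genes, held 30700 CPM of them. PD day 2 replicate 1 held 20370 CPM, near its group median of 20820. The part of muscle RNA in these low and high levels was not tested.

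Promoter sequences are shown for 5 genes because the S-phase and mitotic genes rose together while Ttk did not. RefSeq promoters of the GRCm38.p6 table, each of 300 bases with 250 before and 50 after the gene start, were found for 43 of the 52 genes, 47 promoters in all. All 47 matched GRCm39, the build of the count files, on the strand of the gene. No promoter was shown or searched for Ccna2, Mcm4, Ccne2, Gins2, Kif20a, Aurkb, Cdc25c, Tpx2 and Foxm1. Capitals mark 3 kinds of letters, searched on both strands: E2F letters (TTTGGCGC, TTTCCCGC, TTTCGCGC or TTTGCCGC), the CHR letters TTTGAA, and CCAAT, the letters read by NF-Y. Sequences run 5′ to 3′ on the gene's strand. Mcm5 lies at chr8:75835887-75836186 on the plus strand, Mcm6 at chr1:128287393-128287692 on the minus strand, Cdk1 at chr10:69188693-69188992 on the minus strand, Mki67 at chr7:135318059-135318358 on the minus strand and Ttk at chr9:83716492-83716791 on the plus strand.
Mcm5: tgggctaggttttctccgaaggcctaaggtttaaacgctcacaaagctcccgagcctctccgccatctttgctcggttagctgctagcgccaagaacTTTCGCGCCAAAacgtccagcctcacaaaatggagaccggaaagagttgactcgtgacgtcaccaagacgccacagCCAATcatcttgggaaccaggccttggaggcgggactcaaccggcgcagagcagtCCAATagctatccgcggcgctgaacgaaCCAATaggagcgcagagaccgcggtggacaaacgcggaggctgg
Mcm6: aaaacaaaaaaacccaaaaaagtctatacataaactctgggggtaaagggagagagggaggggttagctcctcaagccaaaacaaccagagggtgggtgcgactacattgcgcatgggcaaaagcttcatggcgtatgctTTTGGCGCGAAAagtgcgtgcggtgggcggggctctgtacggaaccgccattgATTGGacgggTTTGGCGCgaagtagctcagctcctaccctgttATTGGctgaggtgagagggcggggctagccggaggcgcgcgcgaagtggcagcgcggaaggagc
Cdk1: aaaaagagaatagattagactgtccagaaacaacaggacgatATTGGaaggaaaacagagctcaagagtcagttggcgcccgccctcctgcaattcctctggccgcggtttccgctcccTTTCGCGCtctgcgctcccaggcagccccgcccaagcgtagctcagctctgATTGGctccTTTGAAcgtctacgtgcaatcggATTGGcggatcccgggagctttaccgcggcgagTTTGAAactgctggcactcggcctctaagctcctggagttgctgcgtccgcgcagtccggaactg
Mki67: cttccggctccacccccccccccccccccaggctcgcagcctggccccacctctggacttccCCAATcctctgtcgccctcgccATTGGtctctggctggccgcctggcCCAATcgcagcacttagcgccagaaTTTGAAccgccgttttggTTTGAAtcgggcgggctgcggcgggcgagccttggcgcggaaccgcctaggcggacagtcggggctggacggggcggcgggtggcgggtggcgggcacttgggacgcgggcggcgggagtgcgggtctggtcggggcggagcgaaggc
Ttk: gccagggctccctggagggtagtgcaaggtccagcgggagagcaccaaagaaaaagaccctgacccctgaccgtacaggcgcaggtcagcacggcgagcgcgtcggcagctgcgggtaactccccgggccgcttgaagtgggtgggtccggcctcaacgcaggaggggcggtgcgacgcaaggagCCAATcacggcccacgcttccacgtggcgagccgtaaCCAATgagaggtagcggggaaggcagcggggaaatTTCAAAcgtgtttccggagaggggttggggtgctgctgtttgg

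Each Mcm promoter above held overlapping E2F letters, on both strands in the same stretch, which start 153 and 149 bases before the start of Mcm5 and 110 and 106 bases before that of Mcm6; Mcm6 held another match 47 bases before the start. Neither held CHR letters. Cdk1 held E2F letters 131 bases before its start and CHR letters 71 and 15 bases before it, and Mki67 held CHR letters 116 and 98 bases before its start and no E2F letters. In Ttk the CHR letters lay after the start, from base 8, with CCAAT 65 and 28 bases before it. The windows of Cdk1 and Ttk lie wholly inside the annotated genes, at chr10:69170976-69236595 and chr9:83703392-83755037, and do not hold the annotated start. The windows of Mcm5, Mcm6 and Mki67 hold it.

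Over the matched promoters, E2F letters were present in 7 of 18 S-phase promoters (38.9%) and 1 of 29 mitotic promoters (3.45%), against 744 of all 32851 promoters in the table (2.26%). CHR letters were present in 3 S-phase promoters (16.7%) and 23 mitotic promoters (79.3%), against 17.9% of all. CCAAT was present in 72.2% of S-phase and 82.8% of mitotic promoters, against 37.4% of all, and CHR together with CCAAT in 16.7% and 72.4%, against 6.95% of all. The mitotic promoter with E2F letters was that of Cdk1. Among mitotic promoters, those of Birc5, Mybl2 and Nusap1 held none of these letters, and those of Bub1, Ccnb1 and Cenpe held CCAAT alone. Among S-phase promoters, those of Ccne1, E2f1 and Tyms held none. Those of Pcna, Rrm1 and Rrm2 held CCAAT alone, as did a promoter each of Mcm7 and Uhrf1. All of these genes were called higher in every wound comparison. These are counts of letters, not of bound sites, and their link to the changes was not tested.

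**Figure D4:**
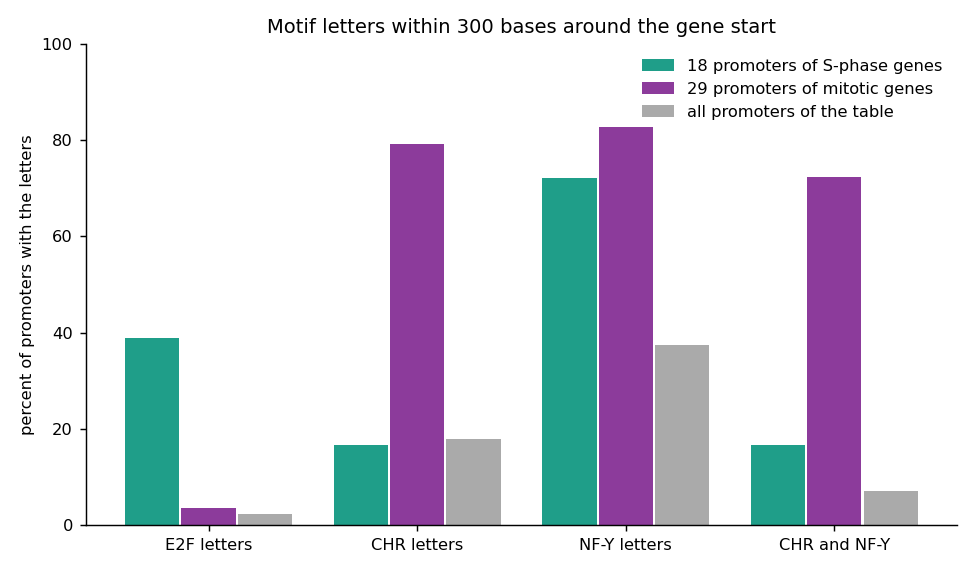
Percentage of promoters (vertical axis) that hold E2F, CHR or NF-Y letters, or both CHR and NF-Y letters, among 18 promoters of S-phase genes, 29 of mitotic genes and all 32851 of the RefSeq table. E2F letters are most frequent in S-phase promoters, at 38.9%, and CHR letters in mitotic promoters, at 79.3%.

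PD wounds did not differ detectably from P wounds in any of the 52 genes. On day 2, day 4 and day 12, and in the mean of the 3 days, 0 genes of the list and 0% of all 20657 genes were called between PD and P wounds by edgeR. Of the 52 genes, 0 had an unadjusted p under 0.05, and DESeq2, limma-voom and every other alternative run also called 0 of them. PD and P libraries overlapped for all 52 genes on each day. For the overlap and the unadjusted p the shares over all genes are not given here. Those counts therefore do not set the list apart. The largest differences on day 2 were those of Bub1, at -0.30 ± 0.32 on the log2 scale (SE; 95% interval -0.94 to 0.35), and Mcm5, at 0.19 ± 0.25 (-0.32 to 0.70). On day 4 the extremes were Ect2, at -0.53 ± 0.32 (-1.18 to 0.13), and Birc5, at 0.28 ± 0.15 (-0.03 to 0.58). On day 12 they were Ccne2, at -0.43 ± 0.31 (-1.07 to 0.21), and Ube2c, at 0.12 ± 0.17 (-0.23 to 0.47). The smallest unadjusted p over the 3 days was 0.0729, for Birc5 on day 4, with an adjusted p of 0.459.

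Each of these intervals holds for a single gene in a single comparison, without adjustment for the number of genes. It rests on the spread between these libraries. A difference of 2-fold in either direction lies outside the 95% interval of all 52 genes on day 2 and of 50 genes on days 4 and 12, the exceptions being Ccne2 and Ect2. In the mean of the 3 days it lies outside the interval of all 52. For Cdk1 the mean difference was 0.01 ± 0.10 (-0.18 to 0.21), and for Mki67 it was -0.06 ± 0.14 (-0.34 to 0.21). Most estimates were below 0, in 39, 38 and 37 of the 52 genes on days 2, 4 and 12, but the medians were only -0.08, -0.07 and -0.05, and libraries in which the genes move together make such counts of signs dependent on each other. With 2 surrogate variables in the fit the medians on day 4 were 0.10 for S-phase and 0.14 for mitotic genes, and without PD day 12 replicate 1 those on day 12 were 0.02 and 0.10. Cdkn1a, the gene of the series title, ranged from 225 to 416 CPM in PD wounds and from 300.1 to 463 CPM in P wounds on day 2, from 390 to 823 and from 382 to 717 CPM on day 4, and from 298 to 433 and from 197 to 309 CPM on day 12. Its log2 difference of PD over P was -0.23 on day 2, 0.41 on day 4 and 0.40 on day 12, with adjusted p of 1, 0.414 and 0.884, and was not called.

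**Figure D5:**
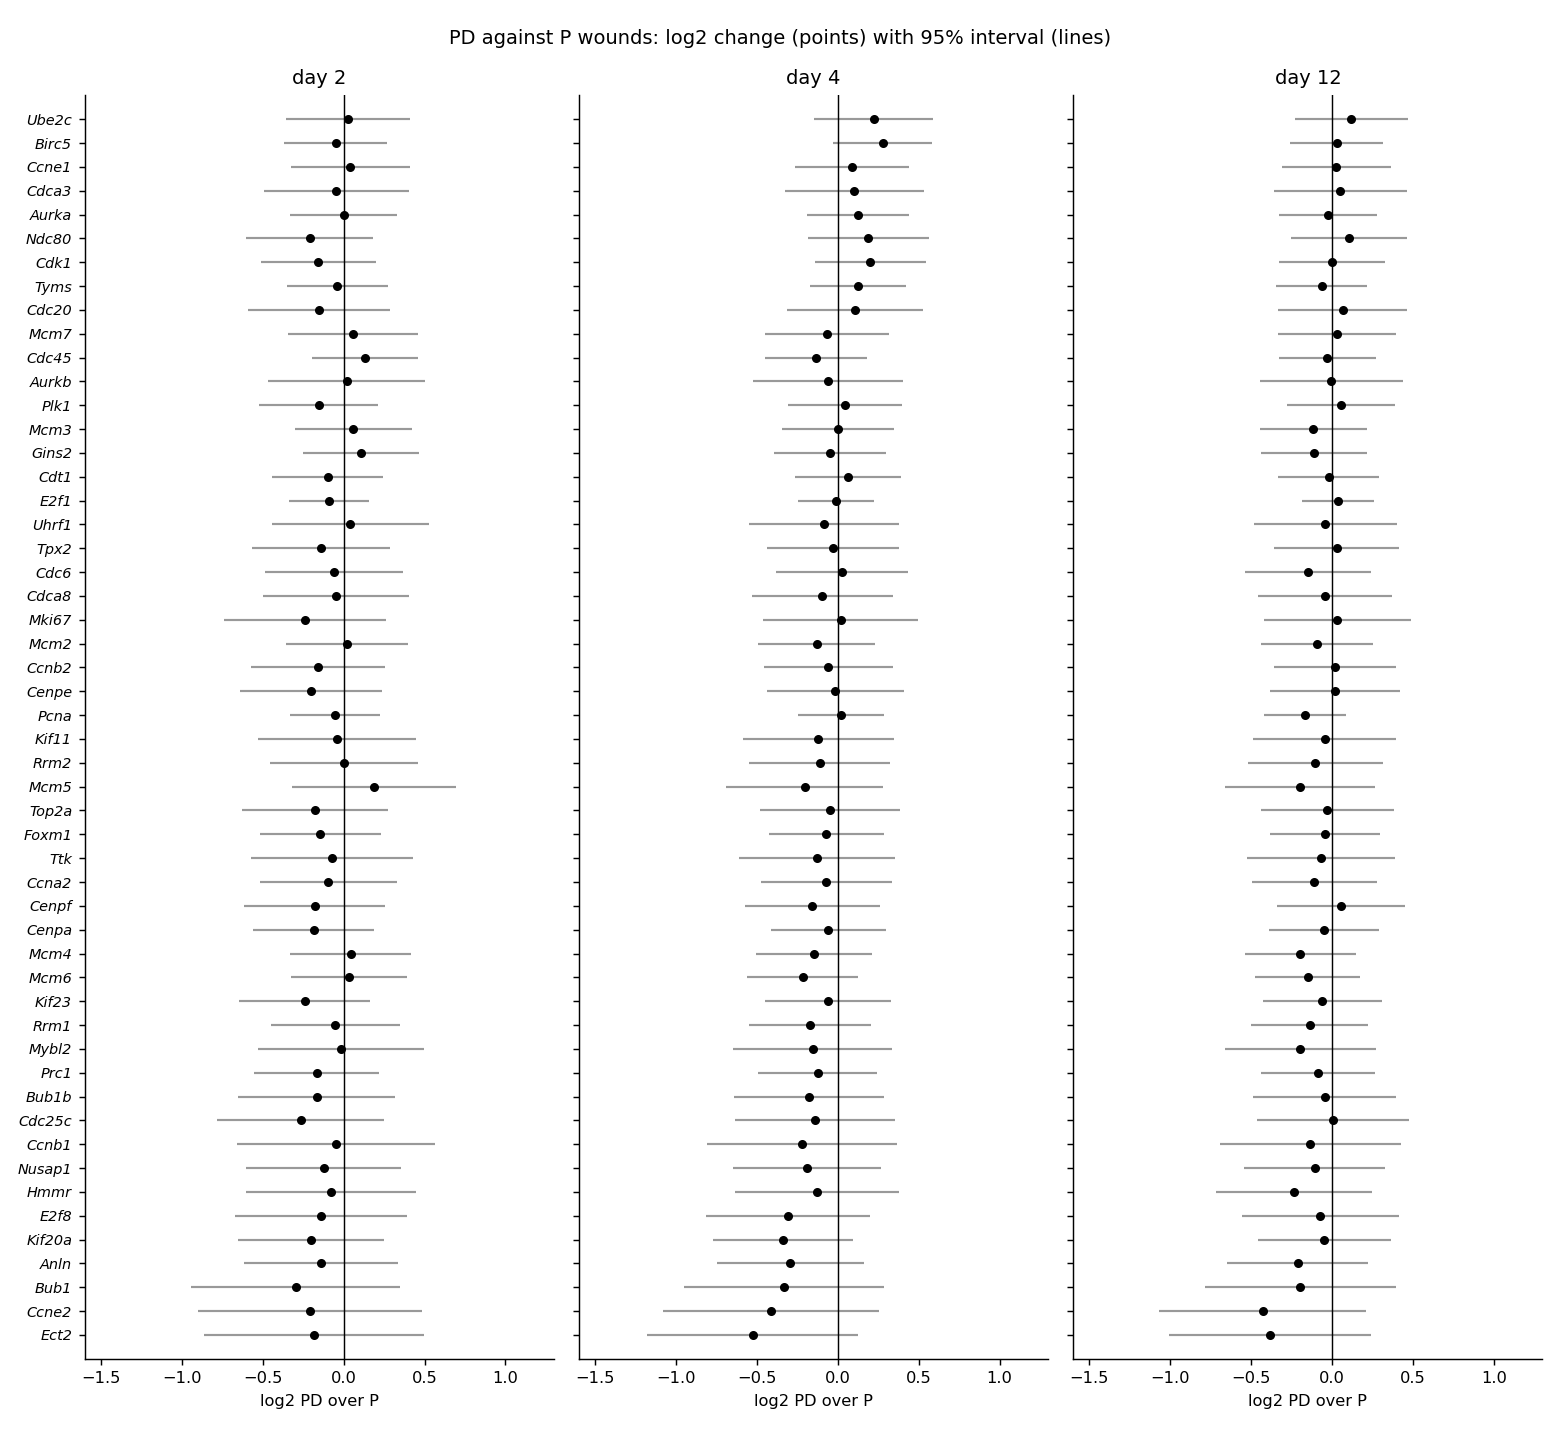
Log2 difference of PD over P wounds (points) with its 95% interval (lines) for each of the 52 genes on days 2, 4 and 12, ordered by the mean over the days. The interval of every gene includes 0, and the widest reach is to -1.18 for Ect2 on day 4.

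Between days the genes changed far less than between wound and unwounded skin. From day 2 to day 4, 1 of the 52 genes was called higher in PD wounds (2.67% of all genes) and 0 in P wounds (5.76%), where 0 also had an unadjusted p under 0.05 and limma-voom called 3. The gene in PD wounds was Birc5, at 0.51 ± 0.15 on the log2 scale (SE; adjusted p = 0.0424). Its call was lost without any of 9 of the 11 libraries, with log2 changes between 0.42 without PD day 4 replicate 4 (adjusted p = 0.149) and 0.54 without PD day 2 replicate 4 (0.0572); the exceptions were PD day 4 replicates 2 and 6. None of the 52 was called lower on day 4 than on day 2 in PD wounds (1.59% of all genes) or P wounds (2.7%). The change from day 2 to day 4 did not differ detectably between PD and P wounds, with 0 of the 52 genes and 0% of all genes called.

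From day 4 to day 12, 6 genes were called higher in PD wounds (15.7% of all genes) and 1 lower (15.6%), and in P wounds 1 was called higher (11.2%) and 0 lower (12.6%). In each case the 52 genes were called less often than all genes, so these counts do not set the list apart. Mcm7 was called higher in both kinds of wound. It ranged from 53.4 to 142.7 CPM in PD wounds of day 12, with a median of 102.5, against 48.4 to 77.0 CPM on day 4, with a median of 63.6. In P wounds it ranged from 63.8 to 127.4 CPM on day 12, with a median of 106.7, against 66.0, 73.8, 84.4, 58.7 and 54.7 CPM on day 4. The groups overlapped in both kinds of wound, and the log2 change was 0.64 ± 0.18 in PD (SE; adjusted p = 0.0062) and 0.55 ± 0.19 in P wounds (adjusted p = 0.0344). In PD wounds Uhrf1 (0.61), Aurkb (0.61), Cenpf (0.68), Foxm1 (0.44) and Cdc25c (0.74), the phosphatase that activates Cdk1, were also called higher, and Birc5 (-0.42 ± 0.14, adjusted p = 0.0212) was lower. The same genes in P wounds gave 0.57 for Uhrf1, 0.56 for Aurkb, 0.46 for Cenpf, 0.42 for Foxm1, 0.59 for Cdc25c and -0.18 for Birc5, with adjusted p between 0.0701 and 0.421. Cdc25c shares 31.4% of its exon bases with genes on the opposite strand, so its level is less certain. The test of the difference in change called 0 of the 52 genes and 0% of all genes, so the longer list in PD wounds is not shown to set them apart.

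These calls rested on few libraries. The count of 6 was 2 without PD day 12 replicate 4, 3 without PD day 12 replicate 6, PD day 4 replicate 3 or PD day 4 replicate 6, and 11 without PD day 12 replicate 1. Birc5 was not called lower without PD day 12 replicate 1 (-0.30, adjusted p = 0.0576) or PD day 4 replicate 4 (-0.33, 0.0805). The call of Mcm7 in P wounds was lost without P day 12 replicate 3 (0.50, 0.0689), 4 (0.48, 0.0786), 5 (0.54, 0.0545) or 6 (0.48, 0.0846), or P day 4 replicate 1 (0.54, 0.0658), 4 (0.49, 0.0786) or 5 (0.48, 0.0947), and with the replicate block (0.51, 0.0568) or only the libraries compared (0.53, 0.0833). The hair markers were higher on day 12, as given above, and their part in these changes was not tested. The highest mean of the 3 days fell on day 12 for 26 of the 33 mitotic genes in PD wounds and 24 in P wounds. Among the 19 S-phase genes it fell on day 12 for 6 in PD wounds and 12 in P wounds, on day 4 for 5 and 4, and on day 2 for 8 and 3. The ratio of the highest to the lowest daily mean was small, with a median of 1.38 for mitotic and 1.14 for S-phase genes in PD wounds and 1.23 and 1.13 in P wounds.

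Related genes outside the 52 were counted in lists of their own, to be read against the shares of all genes called higher (21% to 25.4%) and lower (18.4% to 21.8%) given above. Of 23 other replication genes, 20, 19 and 21 were called higher in PD wounds and 19, 18 and 21 in P wounds on days 2, 4 and 12, and 0 lower. Mcm10, which helps to start the fork, averaged 16.1, 21.9 and 17.2 CPM in PD wounds and 18.9, 18.7 and 17.6 CPM in P wounds, against 1.22 CPM in unwounded skin. Its log2 change lay between 3.73 and 4.17, above that of any of the 52 genes. Orc1, a subunit of the origin recognition complex, gave 3.08, 3.01 and 2.67 in PD and 3.33, 3.18 and 3.02 in P wounds. Of 28 other mitotic genes, 25, 25 and 26 were called higher on the 3 days in PD wounds, and likewise in P wounds. Cenpm, a kinetochore protein, led them with log2 changes between 2.87 and 3.36. Pttg1, the securin that holds separase, was lower in 5 of the 6 comparisons, from -0.57 to -0.65 in PD and from -0.77 to -0.97 in P wounds, and was not called in PD wounds of day 4 by edgeR (-0.36, adjusted p = 0.177), where limma-voom (-0.37, 0.0249) and 2 surrogate variables (-0.66, 1.6e-06) called it. Its call in PD wounds of day 12 was lost with no composition factor (-0.33, 0.149), no filter (-0.55, 0.0519) and the stricter filter (-0.51, 0.0603). In PD wounds of day 2 its call was lost without any of the 3 unwounded libraries (adjusted p = 0.0713, 0.1099 and 0.0676 without replicates 1, 2 and 3) and without PD day 2 replicate 2 (0.0647), and on day 12 without any of the unwounded libraries (0.0957, 0.151 and 0.0900) and without PD day 12 replicate 2 (0.072) or 6 (0.0651).

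Of 8 G1 cyclins, kinases and Myc genes, 2, 2 and 5 were called higher in PD wounds and 3, 2 and 5 in P wounds. On day 4 the count of 2 of 8 is near the share of all genes called higher, 25.4% in PD and 23.6% in P wounds. Cdk4, the G1 kinase, was higher throughout, at 0.74, 0.85 and 1.54 in PD and 0.72, 0.92 and 1.56 in P wounds on the log2 scale. Ccnd2, a D cyclin, was lower on days 2 and 4, at -1.24 and -1.83 in PD and -1.49 and -1.29 in P wounds. Mycn was called on day 12, when it ranged from 10.7 to 83.8 CPM in PD wounds and from 11.3 to 60.6 CPM in P wounds, against 2.32, 3.09 and 2.67 CPM in unwounded skin, a log2 change of 4.10 and 3.88. On day 2 some other settings called Mycn lower. With 2 surrogate variables it was at -1.255 in PD (adjusted p = 0.021) and -1.23 in P wounds (0.0231). With only the libraries compared it was at -0.96 (0.0078) and -0.94 (0.0481). On day 4 its highest level was 12.9 CPM, in P day 4 replicate 3, the library with high hair markers; the part of hair follicle cells in the Mycn level was not tested. Of 12 Rb, E2F and DREAM genes, 5, 3 and 7 were called higher in PD and 6, 5 and 6 in P wounds, led by the repressor E2f7, with log2 changes between 2.22 and 2.73, and 2 were called lower in each comparison. Those were Rbl2, the pocket protein p130 of resting cells, at -0.98, -1.17 and -1.25 in PD and -0.78, -1.22 and -1.24 in P wounds, and Lin52, a MuvB subunit, at -0.82 to -0.91 in PD and -0.75 to -0.95 in P wounds. A count of 2 of 12 lower is near the share of all genes called lower, 18.4% to 21.8%. The count of 3 of 12 higher in PD wounds of day 4 is near the 25.4% of all genes.

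Of 7 cyclin-dependent kinase inhibitors, 2, 4 and 4 were called higher and 3, 1 and 1 lower in PD wounds, and 3, 3 and 1 higher and 3, 1 and 1 lower in P wounds. A count of 1 or 2 of 7 is near the shares of all genes called in either direction. Cdkn1b, which encodes p27 of resting cells, was lower in all 6 comparisons, from -0.96 to -1.08 in PD and from -0.86 to -0.94 in P wounds. Cdkn1c, which encodes p57, averaged 11.8, 62.3 and 60.8 CPM in PD wounds and 11.8, 46.3 and 44.6 CPM in P wounds, against 27.5 CPM in unwounded skin. It was called lower on day 2, at -1.22 in both kinds of wound, and higher in PD wounds of day 4 (1.18) and day 12 (1.14), while P wounds gave 0.75 and 0.70 (adjusted p = 0.124 and 0.143). The day 2 calls of Cdkn1c were lost without unwounded replicate 2 (adjusted p = 0.102 in PD and 0.0854 in P wounds), that of PD day 4 without unwounded replicate 3 (0.0632) and that of PD day 12 without PD day 12 replicate 3 (0.0516) or unwounded replicate 1 (0.0551) or 3 (0.0697). Other settings called Cdkn1c higher in P wounds too. On day 4 these were limma-voom (1.13, adjusted p = 0.00018), 2 surrogate variables (0.99, 0.011) and the fit without P day 4 replicate 3 (0.997, 0.022). On day 12 they were no composition factor (0.96, 0.0304), limma-voom (0.56, 0.0396) and 2 surrogate variables (1.15, 0.0047). The difference of Cdkn1c between PD and P wounds was not called. Cdkn2b, which encodes p15, was called lower on day 2, at -0.94 in PD and -1.16 in P wounds. For Cdkn1a, which encodes p21, the log2 change was 0.47 (adjusted p = 0.104), 1.53 (4.9e-06) and 0.62 (0.0249) in PD wounds and 0.71 (0.0152), 1.12 (0.00035) and 0.22 (0.43) in P wounds on days 2, 4 and 12. Without unwounded replicate 2 it was not called in PD wounds of day 12 (0.58, 0.0786) or P wounds of day 2 (0.63, 0.0603). With no composition factor Cdkn1a was also called in PD wounds of day 2 (0.60, 0.0255) and P wounds of day 12 (0.49, 0.04997), and with 2 surrogate variables in PD wounds of day 2 (0.40, 0.0248). Cdkn2a was among the genes called higher but had 3 counts over the unwounded libraries together, so no fold is given for it.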

How the data were processed

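Skin RNA was extracted from snap-frozen tissue with TRIzol, and libraries were made with the TruSeq Stranded mRNA kit and sequenced on an Illumina NovaSeq, per the labels' protocols. The authors deposited whole-number read counts per gene, not normalized. Trimmomatic, HISAT2 2.1.0, SAMtools 1.9, HTSeq and the GRCm39 build are named in the submitters' processing notes. The strand setting of the counting and the annotation release are not given in the sources used here. Where a gene shares exon bases with a gene on the other strand, its counts are therefore less certain. This holds for 14 of the 52 genes at over 10% of their exon bases. They are Mcm7, Pcna, Gins2, Cdc45, Rrm2, Ccne2, E2f8, Ccna2, Aurka, Kif20a, Prc1, Ube2c, Foxm1 and Cdc25c.

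The counts of all 36 libraries were fitted with a mean for each of 7 groups (edgeR 4.0.16 quasi-likelihood test, robust, TMM factors, R 4.3.3). The filter filterByExpr (minimum count 10, minimum total 15) kept 20657 genes, all 52 among them. P-values were adjusted by Benjamini-Hochberg over these genes for each of 16 contrasts, two-sided, with a threshold of 0.05. CPM used TMM-scaled totals. No replicates of a group differed by as little as sampling noise. The scripts were tested on simulated data. Promoter letters were searched in RefSeq sequences.

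The members and lists were chosen with earlier results of these data known. Per-library values are given for Mki67, Cdk1, Mcm5, Pcna and Ccne1. They are also given for some of the genes with the largest or smallest changes, or with a highest day unlike that of most. Other genes are given by means, ranges or changes, or only counted. Of the related lists, up to 3 genes changed most in each direction are named. Alternatives were DESeq2 1.42.0 (size factors; Wald test), no composition factor, limma-voom with sample weights (limma 3.58.1), no filter, a filter at CPM 1, robust fitting off, replicate number as a block, 2 surrogate variables (sva 3.50.0), only the libraries compared, and each library left out.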

Additional observations from a re-analysis of the deposited data

Results flagged for a closer look

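In groups of 4 to 10 libraries, 126 sets of values were examined for a library far from the others, and 3 were found; chance gives about 1 in 20. Mki67 stood at 84.4 CPM in PD day 2 replicate 1, against 122.3 to 137.1 CPM in the other libraries of its group. Birc5 stood at 35.3 CPM in the same library, against 42.3 to 44.5 CPM in the others. That library was the lowest of its group for 41 of the 52 genes. Anln stood at 42.7 CPM in P day 12 replicate 1, against 18.4 to 27.3 CPM in the other libraries of its group.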

How the results depend on the processing

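Against unwounded skin the count of the 52 genes called higher stayed within 47 to 51, 45 to 49 and 47 to 49 in PD wounds and 46 to 51, 46 to 52 and 48 to 50 in P wounds on days 2, 4 and 12, over all alternatives. Between PD and P wounds it was 0 under every alternative. Counts between days depended on the setting, and the cause was not tested. From day 4 to day 12 in PD wounds, the 6 genes higher were 11 with no composition factor, 10 with limma-voom, 3 with the replicate block, 1 with only the libraries compared, and 2 to 11 when 1 library was left out. The 1 gene lower was 0 with no composition factor, no filter or only the libraries compared, and 0 to 1 with a library left out. From day 4 to day 12 in P wounds, the 1 gene higher was 7 with no composition factor, 2 with the DESeq2 Wald test, 13 with limma-voom, 2 with the stricter filter, 0 with the replicate block, 4 with 2 surrogate variables, 0 with only the libraries compared, and 0 to 6 with a library left out, 6 being without P day 12 replicate 2; limma-voom and surrogate variables each called 1 lower instead of 0. From day 2 to day 4 in PD wounds, the 1 gene higher was 0 with no composition factor, no filter or only the libraries compared, 2 with DESeq2 or surrogate variables, 7 with limma-voom, and 0 to 1 with a library left out. In P wounds limma-voom called 3 higher instead of 0.

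Of 8470 refits of 450 gene values, 64 changed direction, and none of these values had been called. Ttk in PD wounds of day 12 (-0.01) was 0.011 with DESeq2 size factors, 0.22 with no composition factor, 0.012 with the Wald test, 0.10 with limma-voom, 0.0067 with no filter, 0.048 with the stricter filter, 0.072 with the replicate block and 0.0059 with surrogate variables. With a library left out it ran from -0.11 to 0.25 there, -0.11 to 0.29 in PD day 2, -0.0896 to 0.31 in PD day 4, -0.0114 to 0.33 in P day 2 and -0.021 to 0.32 in P day 12. With surrogate variables it was -0.0105 in P day 4 and -0.22 in P day 12. Ccne2 in PD wounds of day 12 (-0.05) was 0.20 with no composition factor, 0.34 with limma-voom, 0.014 with the stricter filter, 0.23 with the replicate block and 0.11 with surrogate variables, and ran from -0.15 to 0.24 with a library left out; in PD day 4 it ran from -0.11 to 0.39. Ect2 in PD day 4 was -0.093 with limma-voom and -0.035 to 0.46 with a library left out. Ccnd2 in PD day 12 was 0.0098 with size factors and with the Wald test, 0.22 with no composition factor, 0.13 with limma-voom, 0.049 with the stricter filter, and -0.14 to 0.12 with a library left out; in P day 12 it was -0.35 with surrogate variables. Mycn in P day 4 was -0.058 with surrogate variables. The difference of Mki67 between PD and P wounds on day 4 was -0.045 with no composition factor, -0.0097 with no filter and -0.13 to 0.15 with a library left out. On day 12 it was -0.0054 with no composition factor, -0.004 with the replicate block and -0.16 to 0.19 with a library left out, and its mean over days was 0.0455 with surrogate variables. Birc5 from day 4 to day 12 in P wounds was 0.0078 with no composition factor.

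Same-numbered PD and P libraries correlated between -0.253 and 0.535 in their deviations from group means, over 0.1 in 12 of 16 pairs, and 6 PD libraries correlated best with their own number. Since the labels tie the numbers to no shared animal or batch and 4 pairs were not over 0.1, the block was kept as an alternative. Against unwounded skin the block added calls of Ccne2 in P wounds of day 2 (0.85, adjusted p = 0.0492), of Ect2 in PD day 2, P day 4 and P day 12 and of Anln in PD day 4 and P day 12, and ended that of Mcm6 in PD day 4, with values given beside each gene. Depth limited none of the 52 genes; with 3 unwounded libraries, leaving out unwounded replicate 2 ended calls of Mcm6, Mcm7, Anln, Ect2 and Ccnb1, as given with each gene.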
